A study of Mus musculus with 92 samples.

Results

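The quadriceps muscle of mice with the most fibrillar collagen transcript was compared with that of mice with the least, within 1 group of 92 animals. Each animal was given a collagen score, the mean of its z-scored log2 values of Col1a1, Col1a2 and Col3a1, where a z-score counts SDs from the mean of the 92 animals. The sets were thus chosen by the measured levels of these 3 transcripts. The 23 highest-scoring animals form the high set and the 23 lowest-scoring animals the low set, 46 of 92 in all, and the other 46 are called the middle animals. Every animal was a DOz mouse, an outbred stock in which animals differ genetically from each other, was about 18 to 20 weeks old and had eaten only chow. RNA came from the quadriceps, libraries from the KAPA mRNA HyperPrep kit, and the values are deposited log2 levels on a per-million scale. The labels give no genotype, treatment or disease contrast, so the sets are the ends of 1 ranking by measured values and not treated groups. No label ties animals to a litter, cage or day, so the p-values below measure only the spread between these samples. The series concerns muscle ceramides and insulin resistance, and no lipid or insulin measurement was analysed here.

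Fibrillar collagens are secreted as procollagen chains by fibroblasts and tendon cells, trimmed outside the cell, assembled into fibrils and cross-linked by lysyl oxidases. Type I collagen is built from the Col1a1 and Col1a2 chains and type III from Col3a1, and in muscle they make up most of the connective tissue around fibres, around bundles of fibres and at the junction with tendon. Proteoglycans, glycoproteins and elastic fibres are laid down with them, and metalloproteinases and cathepsins degrade them.

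The promoters of 2 score genes and of 2 secreted proteins are shown here, the first pair because it helped to choose the animals and Fstl1 and Sparc because they were among the genes with the smallest p-values. Each is the 250 bases before the RefSeq start of the gene in GRCm38.p6, 5′ to 3′ on the strand of the gene, with a match to a CCAAT box (CCAAT or its reverse complement ATTGG) or a TATA box (TATAAA or its reverse complement TTTATA) in capitals. Col1a2 lies at chr6:4505368-4505617 on the plus strand. Col3a1 lies at chr1:45311288-45311537 on the plus strand. Sparc lies at chr11:55420081-55420330 on the minus strand. Fstl1 lies at chr16:37776805-37777054 on the plus strand. Col1a1 is named only.
Col1a2 promoter: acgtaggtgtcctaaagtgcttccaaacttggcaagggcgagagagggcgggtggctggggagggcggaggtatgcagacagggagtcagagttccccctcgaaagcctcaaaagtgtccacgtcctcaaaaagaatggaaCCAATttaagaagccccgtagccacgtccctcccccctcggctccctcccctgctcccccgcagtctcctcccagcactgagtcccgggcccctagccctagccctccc
Col3a1 promoter: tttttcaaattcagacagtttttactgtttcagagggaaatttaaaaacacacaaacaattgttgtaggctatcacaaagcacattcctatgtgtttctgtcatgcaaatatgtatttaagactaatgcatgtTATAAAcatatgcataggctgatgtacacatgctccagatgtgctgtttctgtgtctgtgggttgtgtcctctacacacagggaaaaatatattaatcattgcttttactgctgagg
Sparc promoter: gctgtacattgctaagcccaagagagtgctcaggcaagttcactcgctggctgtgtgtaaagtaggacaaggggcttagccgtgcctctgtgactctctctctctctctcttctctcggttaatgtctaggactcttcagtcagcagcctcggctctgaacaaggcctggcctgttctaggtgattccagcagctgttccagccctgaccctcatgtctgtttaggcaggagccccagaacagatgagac
Fstl1 promoter: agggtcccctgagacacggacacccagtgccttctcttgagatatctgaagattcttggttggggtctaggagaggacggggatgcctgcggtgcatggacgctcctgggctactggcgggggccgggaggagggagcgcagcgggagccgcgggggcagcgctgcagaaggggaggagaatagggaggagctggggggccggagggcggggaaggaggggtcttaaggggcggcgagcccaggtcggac
The Col1a2 window held CCAAT from -109 to -105 relative to the start, and the Col3a1 window held TATAAA from -117 to -112. The Sparc and Fstl1 windows held neither motif. A CCAAT box in either orientation was present in 36% of the 10092 tested genes with a window, in 30.8% of 821 genes that were higher in the high set and in 32.3% of 609 that were lower. A TATA box was present in 6.72%, 10.1% and 6.9% of the same 3 groups of windows. These are matches of letters in a fixed window and say nothing about binding.

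The score ranged from 0.48 to 3.30 in the high set, with a median of 0.88, and from -2.38 to -0.62 in the low set, with a median of -0.91. At the upper boundary the last animal inside the high set scored 0.48 and the next animal outside it 0.43. At the lower boundary the first animal inside the low set scored -0.62 and the next outside it -0.61, so the boundaries fall in a continuous range and not at a gap. The 3 highest animals, at 3.30, 3.22 and 2.76, stood apart from the fourth, at 1.70.

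**Figure D1:**
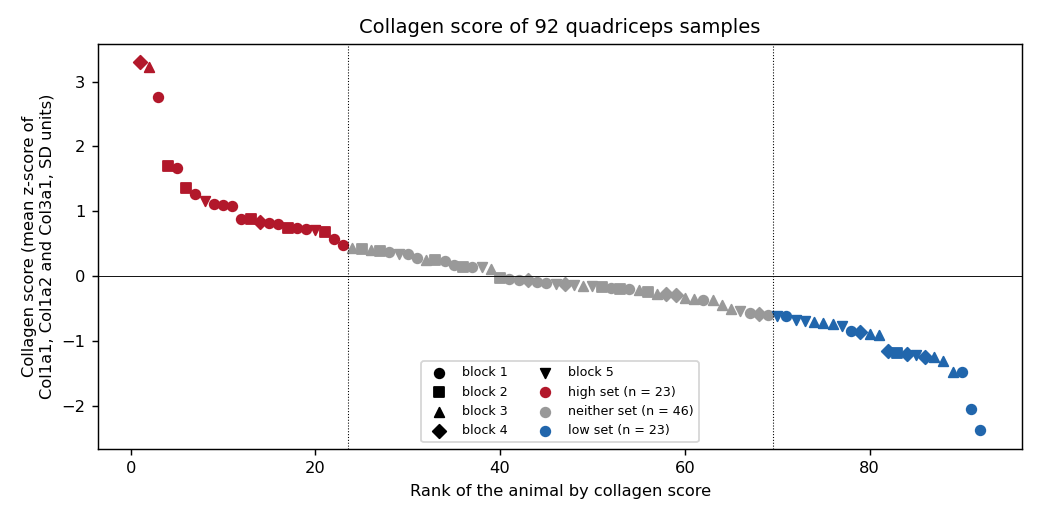
The collagen score of each of the 92 animals (y axis, SD units) is plotted against its rank (x axis). Colour marks the high, low and neither set, the marker shape marks the title-number block, and dotted lines mark the set boundaries. The 3 highest animals lie between 2.76 and 3.30, above the rest of the high set.

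The 3 score genes chose the sets, and their values are a description without a test. Col1a1 had values of 7.23 to 8.90 in the high set (median 7.67) and 5.38 to 6.81 in the low set (median 6.50), a difference in means of 1.37 on the log2 scale, or 2.58-fold. Col1a2 differed by 1.30 and Col3a1 by 1.22. Across the 92 animals, which share the same libraries for each gene, Pearson's r was 0.961 between Col1a1 and Col1a2, 0.885 between Col1a1 and Col3a1, and 0.896 between Col1a2 and Col3a1.

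The rest of the collagen family is likewise a description. Of 31 collagen genes that the score did not use, 30 had the higher mean in the high set. The other 1, Col24a1, had the lower mean by a difference of -0.16. A positive difference was seen in 6028 of the 13407 genes outside the family. Some of the 30 differences were near 0, such as Col19a1 at 0.02, Col4a3 at 0.07 and Col4a6 at 0.08. Col11a1, a minor fibrillar chain, differed by 1.87, and the fibrillar type V chains Col5a2 and Col5a1 by 0.92 and 0.85. Outside the fibril-forming chains, every high animal lay above every low animal for Col12a1, a fibril-associated collagen of tendon and fascia (difference 1.37), and for the beaded-filament chains Col6a2 (0.87) and Col6a1 (0.84). Col4a1, a basement membrane chain, differed by 0.40, and Col14a1, another fibril-associated collagen, by 1.17. The other type VI chains overlapped between the sets: Col6a3 differed by 0.60 with 7 of 23 high animals above the low range, and Col6a6 by 0.52 with 6. Col24a1 ran from 2.34 to 5.40 in the high set and from 2.51 to 6.15 in the low set, so its difference lies well within its spread.

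Muscle identity was plain in both sets: Myh4, the fast myosin heavy chain, ranged from 14.96 to 16.41 in the high set and from 15.61 to 16.22 in the low set. Mitochondrial transcripts had a median of 16.9% of the summed values in either set. The deposited values hold no read counts, so the depth is unknown and no counting interval is given. The numbers at the end of the sample titles fall into 5 runs, called blocks here, and the labels do not say what they are. Blocks 1 and 2 held 18 high and 6 low animals, and blocks 3 to 5 held 5 high and 17 low animals. Values adjusted for the block, or from sets drawn within each block (21 animals each), are therefore given beside a number of the results below.

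Over the 13407 genes outside the collagen family, 1077 (8.03%) were higher and 772 (5.76%) lower in the high set, together 1849 (13.8%), by limma with Benjamini-Hochberg adjusted p under 0.05. The higher genes differed by more than the lower ones: the median difference was 0.54 among the higher genes and -0.19 among the lower genes, beside -0.02 over all genes tested. A difference of at least 1 on the log2 scale was reached by 103 higher genes and by 1 lower gene, G630030J09Rik, a long non-coding RNA named after its values were seen (-1.51), which did not pass in sets drawn within blocks (-1.01, adjusted p = 0.148). With the block as a covariate 993 genes were higher (7.41%) and 707 lower (5.27%), of which 846 and 521 were also called without it. In sets drawn within blocks 725 were higher (5.41%) and 356 lower (2.66%), together 8.06%. Without the 3 highest animals 881 were higher (6.57%) and 499 lower (3.72%), together 10.3%. Centring each library on its median turned the split to 1008 higher and 1362 lower, so the lower side, made of small differences, depends on the scaling. Quantile normalization gave 665 and 326, and genes with a mean of at least 1 gave 752 and 764.

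Fstl1, the secreted glycoprotein follistatin-like 1, had the smallest p of all genes tested. Its log2 values ran from 5.84 to 6.81 in the high set (median 6.28) and from 4.98 to 5.74 in the low set (median 5.49). All 23 high animals lay above all 23 low animals, and Fstl1 was the 1 gene of 13407 outside the collagen family (0.00746%) for which the sets did not overlap in this direction. No gene had every high animal below every low animal. The Fstl1 difference was 0.78 ± 0.06 (SE), or 1.72-fold, with an adjusted p of 6.27e-13 by limma with Benjamini-Hochberg adjustment. It was 0.89 with the block as a covariate and 0.77 in sets drawn within blocks. Its slope in the middle animals, which the comparison of the ends did not use, was 0.40 log2 units per SD of the score (unadjusted limma p = 0.000127). That slope did not pass adjustment (adjusted p = 0.647), and no gene passed there.

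Of 30 measured genes for collagen folding and cross-linking, 15 were higher, 1 was lower and 14 did not pass. Among all genes 8.03% were higher and 5.76% lower. The median difference of the 30 was 0.33, beside -0.02 for all genes. Adamts2, the protease that removes the amino-terminal propeptide, ran from 3.61 to 4.46 (median 4.03) in the high set and from 3.001 to 3.67 (median 3.29) in the low set. Only 2 of the 23 high animals fell within the range of the low set. Its difference was 0.73 ± 0.06 (SE, limma adjusted p = 2.26e-11). Pcolce, which enhances removal of the carboxy-terminal propeptide, ran from 4.45 to 5.14 (median 4.75) against 3.37 to 4.53 (median 4.20), and 22 high animals lay above every low animal. Its difference was 0.66 ± 0.07 (SE, limma adjusted p = 4.68e-09). Bmp1, the carboxy-terminal propeptidase itself, was higher by 0.47 (adjusted p = 0.000101).

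The lysyl oxidases, which form the aldehydes that cross-link fibrils, were higher in all 5 measured members, by 0.61 to 1.03, of which Loxl4 (0.84), named after its values were seen, did not pass in sets drawn within blocks (adjusted p = 0.228). Lox ran from 3.06 to 5.49 (median 3.99) in the high set and from 2.33 to 3.63 (median 2.94) in the low set, and 15 of 23 high animals lay above the low range. Its difference was 1.03 ± 0.15 (SE), or 2.04-fold (limma adjusted p = 1.52e-06). Loxl2 differed by 0.84 and Loxl1 by 0.61. Among 10 genes of prolyl and lysyl hydroxylation 1, P3h3, was higher at 0.42, a share near the 8.03% of all genes, and the differences ranged from -0.22 to 0.42. P4ha2, a prolyl 4-hydroxylase subunit, did not pass at -0.22 (adjusted p = 0.0713) and was lower with the block as a covariate (-0.27, adjusted p = 0.0412) and after median centring (-0.24). P3h3 did not pass after quantile normalization (0.31). These smaller groups were formed after the values were seen, and no difference between them was tested. Crtap, a partner of the prolyl 3-hydroxylase complex, was higher by 0.56 (adjusted p = 9.73e-06). Serpinh1, the collagen chaperone of the endoplasmic reticulum, had a difference of 0.35 and did not pass (adjusted p = 0.111), but it passed in sets drawn within blocks at 0.46 (adjusted p = 0.03). The 1 lower member was Mia3, which loads procollagen into transport carriers. It differed by -0.19 (adjusted p = 0.0272), and it did not pass without the 3 highest animals (adjusted p = 0.0593).

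Of 19 measured genes for collagen breakdown and its inhibition, 10 were higher, none was lower and 9 did not pass. Among all genes 8.03% were higher and 5.76% lower. The median difference of the 19 was 0.51. Timp2, an inhibitor that also takes part in activating Mmp2, ran from 6.24 to 7.22 (median 6.80) in the high set and from 5.33 to 6.57 (median 6.04) in the low set, with 17 of 23 high animals above the low range. Its difference was 0.73 ± 0.08 (SE, limma adjusted p = 2.26e-08). Mmp2, a gelatinase, ran from 4.20 to 6.003 (median 5.19) against 3.79 to 4.88 (median 4.59). Of the 23 high animals 18 lay above all low animals. Its difference was 0.66 ± 0.10 (SE, limma adjusted p = 2.51e-06). Mmp14, a membrane-bound collagenase, was higher by 0.73, and Ctsk, the collagen-cutting cathepsin K, by 1.01, or 2.01-fold. Timp1 was not analysed here.

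All 15 measured proteoglycans of the matrix were higher, beside 8.03% of all genes, with a median difference of 0.58. In sets drawn within blocks 12 of them were higher, beside 5.41% of all genes. Bgn, biglycan, a small leucine-rich proteoglycan that binds collagen fibrils, ran from 5.45 to 7.45 (median 5.77) in the high set and from 4.32 to 5.59 (median 5.11) in the low set. Of the 23 high animals 18 lay above every low animal. Its difference was 0.89 ± 0.11 (SE, limma adjusted p = 1.77e-07). Fmod, fibromodulin, which sets fibril diameter in tendon, ran from 3.34 to 6.64 (median 5.86) against 2.63 to 5.75 (median 4.28), a difference of 1.47 ± 0.25 (SE, limma adjusted p = 3.02e-05). Kera, keratocan, of the same family, ran from 1.02 to 4.28 (median 3.36) against -0.71 to 3.54 (median 1.08), a difference of 1.82 and a 3.54-fold ratio. Both were widely spread, and 14 high animals for Fmod and 8 for Kera lay above the low range. Dcn, decorin, the small leucine-rich proteoglycan that decorates type I fibrils, differed by 0.42 (adjusted p = 0.000842).

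Of 26 measured matrix glycoproteins, 20 were higher and none lower, beside 8.03% and 5.76% of all genes, with a median difference of 0.57. Sparc, a collagen-binding protein that aids fibril assembly, ran from 7.81 to 8.62 (median 8.20) in the high set and from 7.03 to 7.95 (median 7.60) in the low set, with 19 of 23 high animals above the low range. Its difference was 0.64 ± 0.06 (SE, limma adjusted p = 8.34e-10). Fn1, fibronectin, the scaffold on which fibrils form, ran from 6.22 to 7.65 (median 6.69) against 5.003 to 6.36 (median 5.89), a difference of 0.98 ± 0.11 (SE) or 1.97-fold. Tnc, tenascin-C, a glycoprotein of tendon and of remodelling matrix, differed by 1.39, or 2.63-fold. Postn, periostin, ran from 2.50 to 6.87 (median 3.57) against 1.73 to 3.92 (median 2.81). Its high values were carried by a few animals: the difference was 1.14, and 0.75 when the 3 highest animals were left out, both past the threshold.

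Of 15 elastic fibre genes 11 were higher and none lower, beside 8.03% and 5.76% of all genes, with a median difference of 0.51. Fbn1, fibrillin-1, the core of microfibrils, which is held in the glycoprotein list, ran from 4.82 to 7.12 (median 6.24) in the high set and from 3.83 to 5.70 (median 5.26) in the low set. Of the 23 high animals 21 lay above the low range. Its difference was 0.99 ± 0.13 (SE, limma adjusted p = 3.03e-07). Mfap4, a microfibril-associated protein, differed by 1.41 and Mfap5 by 0.78, while Fbln2 and Fbln1, fibulins that bind elastin and basement membranes, differed by 0.37 and 0.92. Eln, elastin itself, differed by 0.33, which passed, but not in sets drawn within blocks (0.29, adjusted p = 0.118).

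**Figure D2:**
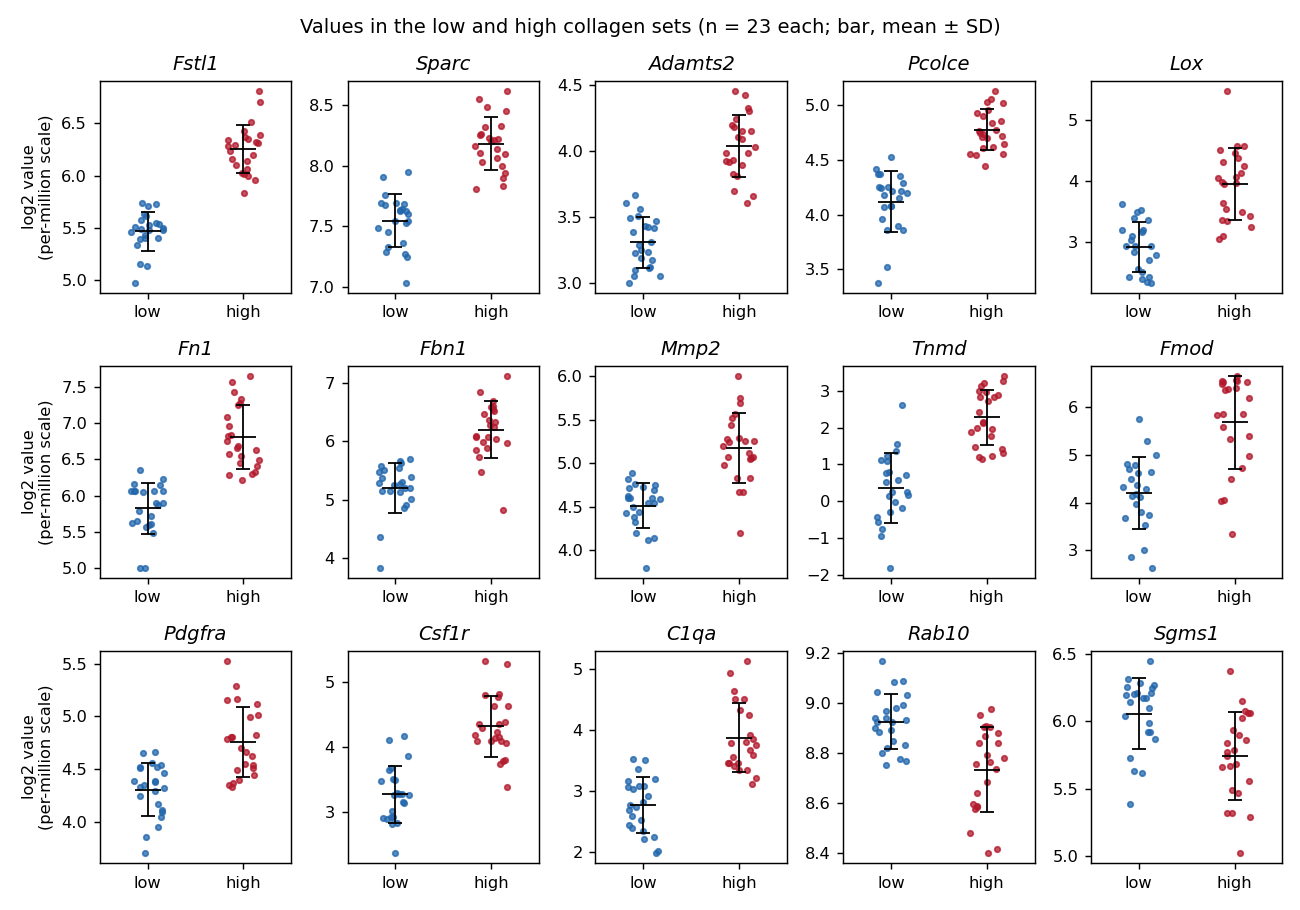
Log2 values (y axis, per-million scale) of 15 genes in the low set and the high set (x axis, n = 23 each), 1 point per animal, with the mean and SD as bars. The sets do not overlap for Fstl1, overlap in a few animals for Adamts2, Pcolce and Sparc, and overlap broadly for Rab10 and Sgms1.

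TGF-beta is the best-known signal for collagen transcription in fibroblasts. Of 23 genes of TGF-beta and CCN signalling, 5 were higher, 1 was lower and 17 did not pass, beside 8.03% higher and 5.76% lower of all genes, with a median difference of 0.04. Tgfb1, the ligand, ran from 2.07 to 4.11 (median 2.82) in the high set and from 1.77 to 3.18 (median 2.35) in the low set, and 2 of 23 high animals lay above the low range. Its difference was 0.54 ± 0.10 (SE, limma adjusted p = 0.000277). The receptor Tgfbr2 was higher by 0.42 (adjusted p = 0.00433), and the secreted TGF-beta-induced protein Tgfbi by 0.70 (adjusted p = 1.93e-07). The matricellular proteins Ccn5 and Ccn3 were higher by 0.85 and 0.71. Ccn2, connective tissue growth factor, a much-used readout of this pathway, had a difference of 0.18 ± 0.17 (SE) and did not pass (adjusted p = 0.563). None of the 5 measured SMAD genes, transducers or inhibitors of the pathway, passed, and their differences lay between -0.16 and 0.08. Bmpr2, a BMP receptor, was lower by a difference of -0.25 (adjusted p = 0.00683), and it did not pass under quantile normalization (adjusted p = 0.0839).

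Among 15 integrins and collagen receptors, 4 were higher, beside 8.03% of all genes, and none lower, with a median difference of 0.06. The 4 were Ddr2, a receptor tyrosine kinase for fibrillar collagen, at 0.43 (adjusted p = 0.00075), and the collagen-binding integrin chains Itga2 at 0.67, Itga10 at 0.53 and Itga11 at 0.49. No high animal lay above the low range for Itga2, and 6 did for Itga10. Both were of low level, with mean log2 values of -0.18 and 0.22 over the 92 animals. In sets drawn within blocks 1 of the 4, Ddr2, passed at 0.51, while the 3 integrin chains had adjusted p-values of 0.0571, 0.135 and 0.0932.

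Markers of 3 kinds of non-muscle cell moved with the score. In bulk RNA, more cells of a type and more RNA per cell cannot be told apart. Of 18 fibroblast and fibro-adipogenic progenitor markers, 16 were higher and none lower, beside 8.03% and 5.76% of all genes. The median difference was 0.58, beside -0.02 for all genes. Pdgfra, the receptor that defines the progenitors, ran from 4.33 to 5.53 (median 4.70) in the high set and from 3.70 to 4.66 (median 4.35) in the low set, a difference of 0.45 ± 0.09 (SE, limma adjusted p = 0.000181). Pdgfrl, a receptor-like secreted protein, differed by 1.16, or 2.24-fold, Clec3b, tetranectin, by 0.77, Lrp1, an endocytic receptor, by 0.52, and Cd34 by 0.51. The summed level of the list ran from 669.8 to 1314 per-million units in the high set (median 1029) and from 558.2 to 926.2 in the low set (median 756.5), with 16 of 23 high animals above the low range.

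Of 9 measured tendon cell markers, 7 were higher and none lower, beside 8.03% and 5.76% of all genes, and the median difference was 1.24. With the block as a covariate it was 1.18. Tnmd, tenomodulin, a membrane protein of tendon cells, ran from 1.15 to 3.40 (median 2.15) in the high set and from -1.82 to 2.62 (median 0.25) in the low set. Its sets overlapped, with 10 of 23 high animals above the low range. The difference was 1.92 ± 0.25 (SE), or 3.78-fold (limma adjusted p = 2.12e-07), and 2.13 with the block as a covariate. Thbs4, a thrombospondin of tendon and muscle matrix, differed by 1.06, Cilp2 by 1.68, Angptl7 by 1.33 and Chad, chondroadherin, by 1.39. The tendon transcription factor Scx, at 0.30, did not pass. The summed tendon markers ran from 72.5 to 194 per-million units in the high set (median 133) and from 38.1 to 108 in the low set (median 65.3), and 16 high animals lay above the low range. The labels do not say how much tendon was taken with each muscle.

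All 15 measured macrophage markers were higher, beside 8.03% of all genes. Their median difference was 1.06, and 1.26 with the block as a covariate. It was 0.95 without the 3 highest animals and 1 in sets drawn within blocks. Block 3 held 1 high animal, which had the highest summed macrophage markers. Csf1r, the receptor for the macrophage growth factor, ran from 3.39 to 5.33 (median 4.23) in the high set and from 2.37 to 4.17 (median 3.27) in the low set, with 13 of 23 high animals above the low range. Its difference was 1.05 ± 0.13 (SE), or 2.07-fold (limma adjusted p = 1.2e-07). The complement gene C1qa ran from 3.10 to 5.13 (median 3.75) against 1.97 to 3.52 (median 2.76), a difference of 1.10, and Adgre1, which encodes the F4/80 antigen, differed by 1.33. Ctss, the lysosomal protease cathepsin S, ran from 2.26 to 7.001 against 0.32 to 2.86, a difference of 1.49 that was 1.22 without the 3 highest animals. Ptprc, the CD45 antigen of all white cells, was the 1 measured gene of the 12 listed for lymphocytes and neutrophils and differed by 1.06. Cell cycle genes had 3 higher of 9 measured, beside 8.03% of all genes. They were Mki67 at 1.06 and Rrm2 at 0.88, both of low level (mean log2 values of -0.18 and -0.45), and Mcm6 at 0.38. Each lost its call in at least 1 other fit: Rrm2 and Mcm6 without the 3 highest animals (adjusted p = 0.0747 and 0.167), Mcm6 also with the block as a covariate (0.0519), and Mki67 in sets drawn within blocks (0.78, adjusted p = 0.156).

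The cell-type signals did not rise together in every animal. The animal with the highest collagen score, 3.30, had the lowest summed tendon markers of the 23 high animals, 72.5 per-million units, and the second highest macrophage markers, 504 per-million units. The next animal, at 3.22, had the highest macrophage markers, 794, and tendon markers of 152. The third, at 2.76, had the highest tendon markers, 194, and macrophage markers of 177.6, which ranked 14 of 23. Of the 23 high animals, 11 lay above every low animal for both lists, 5 for the tendon list only, 4 for the macrophage list only and 3 for neither. The summed fibroblast markers of the 3 highest-scoring animals ranked 14, 16 and 22 of the 23 high animals. The third, at 671.2 per-million units, lay below the low set's median of 756.5, while the high set as a whole had a median of 1029.

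**Figure D3:**
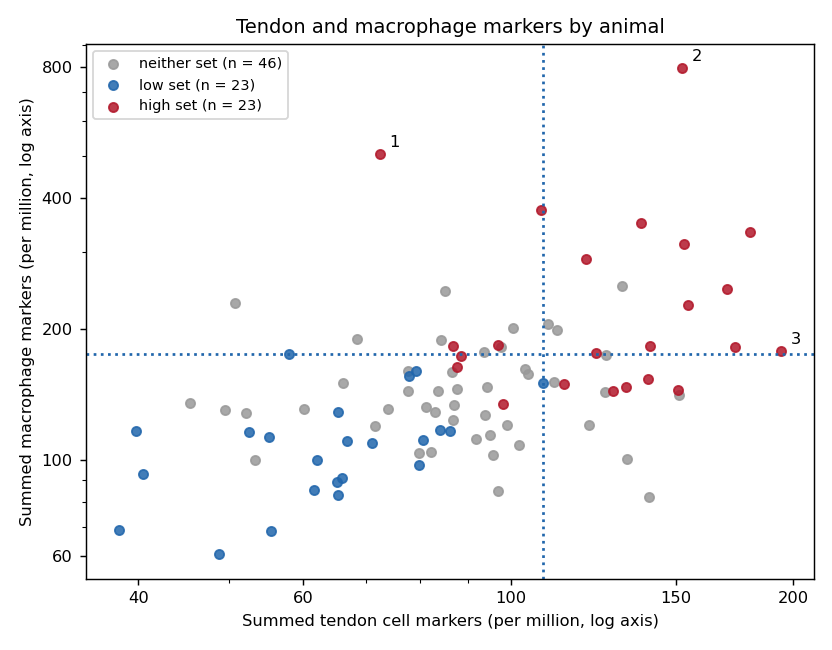
Summed macrophage markers (y axis) against summed tendon cell markers (x axis) in each of the 92 animals, both in per-million units on log axes. Dotted lines mark the highest low-set animal on each axis, and 1, 2 and 3 mark the 3 highest collagen scores. Of the high set, 11 animals lie beyond both lines and 3 within both.

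Most calls were lost when the score of a marker list entered the fit. These list scores differed between the sets, which widens the error of every difference, so a lost call need not mean a smaller difference. Fmod was at 1.47 without a list score (limma adjusted p = 3.02e-05) and 1.53 with the macrophage score (adjusted p = 0.0309). Fstl1 went from 0.78 to 0.50. With the macrophage list score as a covariate, 71 genes were higher and 42 lower, and the higher ones included Fstl1 (0.50), Adamts2 (0.62), Sparc (0.55), Pcolce (0.48), Loxl2 (0.49), Tnmd (1.55) and Fmod (1.53). With the tendon list score 6 genes were higher, and with the fibroblast list score 1, Fstl1, at 0.60. None was lower in either of these fits by limma, where 793 and 935 had a negative difference at unadjusted p under 0.05. The summed markers of all 3 lists had the higher median in the high set, so the parts of the single lists cannot be told apart.

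For the markers of the other cell types of muscle, the counts are read beside the 8.03% of all genes that were higher and the 5.76% that were lower. None of 12 endothelial, 10 adipocyte or 9 Schwann cell markers passed, with median differences of 0.08, 0.15 and -0.02. The summed endothelial markers had medians of 402 per-million units in the high set and 377.9 in the low set. Of 11 smooth muscle and pericyte markers 2 were higher, the pericyte receptor Pdgfrb at 0.42 and the pericyte proteoglycan Cspg4 at 0.33, and 1 of them, Pdgfrb, passed with the block as a covariate. Of 11 satellite cell and regeneration markers 1 was lower, Cdh15, M-cadherin, at -0.18 (adjusted p = 0.0441), and it did not pass with the block as a covariate (adjusted p = 0.264).

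The lists of muscle fibre genes held few calls between the ends, as did all genes tested, of which 13.8% passed. None of 24 oxidative phosphorylation genes passed, with a median difference of -0.02. Of 15 fast fibre genes 1 was lower, a share near the 5.76% of all genes. It was Myh4, with medians of 15.81 in the high set and 16.01 in the low set and a difference of -0.20 that lay at the threshold (adjusted p = 0.05 as rounded) and was -0.06 under quantile normalization (adjusted p = 0.527). It was -0.27 with the block as a covariate (adjusted p = 0.0312) and -0.18 in sets drawn within blocks (adjusted p = 0.226). Over all 92 animals 7 of the 15 fast fibre genes had a negative slope on the score that passed, beside 9.8% of all genes. Among them were Atp2a1, the calcium pump of fast fibres (-0.07 log2 units per SD, adjusted p = 0.00259), and the fast troponin Tnnt3 (-0.06, adjusted p = 0.00268). This count depends on the scaling: it was 8 after median centring, where 15.9% of all genes were lower, and 0 after quantile normalization, where 7.26% were lower and 2 of the 15, the myosins Myh1 and Myl1, were higher. Quantile normalization of these slopes was chosen after the data were seen. None of 10 slow fibre genes passed at the ends, where the median difference was 0.22. With the block as a covariate that median was 0.83 and Casq2, the calsequestrin of slow fibres, passed at 1.04 (adjusted p = 0.00322), but not in sets drawn within blocks (0.61, adjusted p = 0.16). In the middle animals all 10 slow fibre genes had a positive slope, with a median of 1.62 log2 units per SD of the score, and 8 had an unadjusted limma p under 0.05. Over all 13407 genes 6888 had a positive slope there and 836 such a p. None of the 10 passed adjustment in the middle animals. Myh7, the slow myosin heavy chain, differed by -0.45 at the ends and had a slope of 2.45 in the middle animals (adjusted p = 0.647), so its sign depended on which animals were compared.

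**Figure D4:**
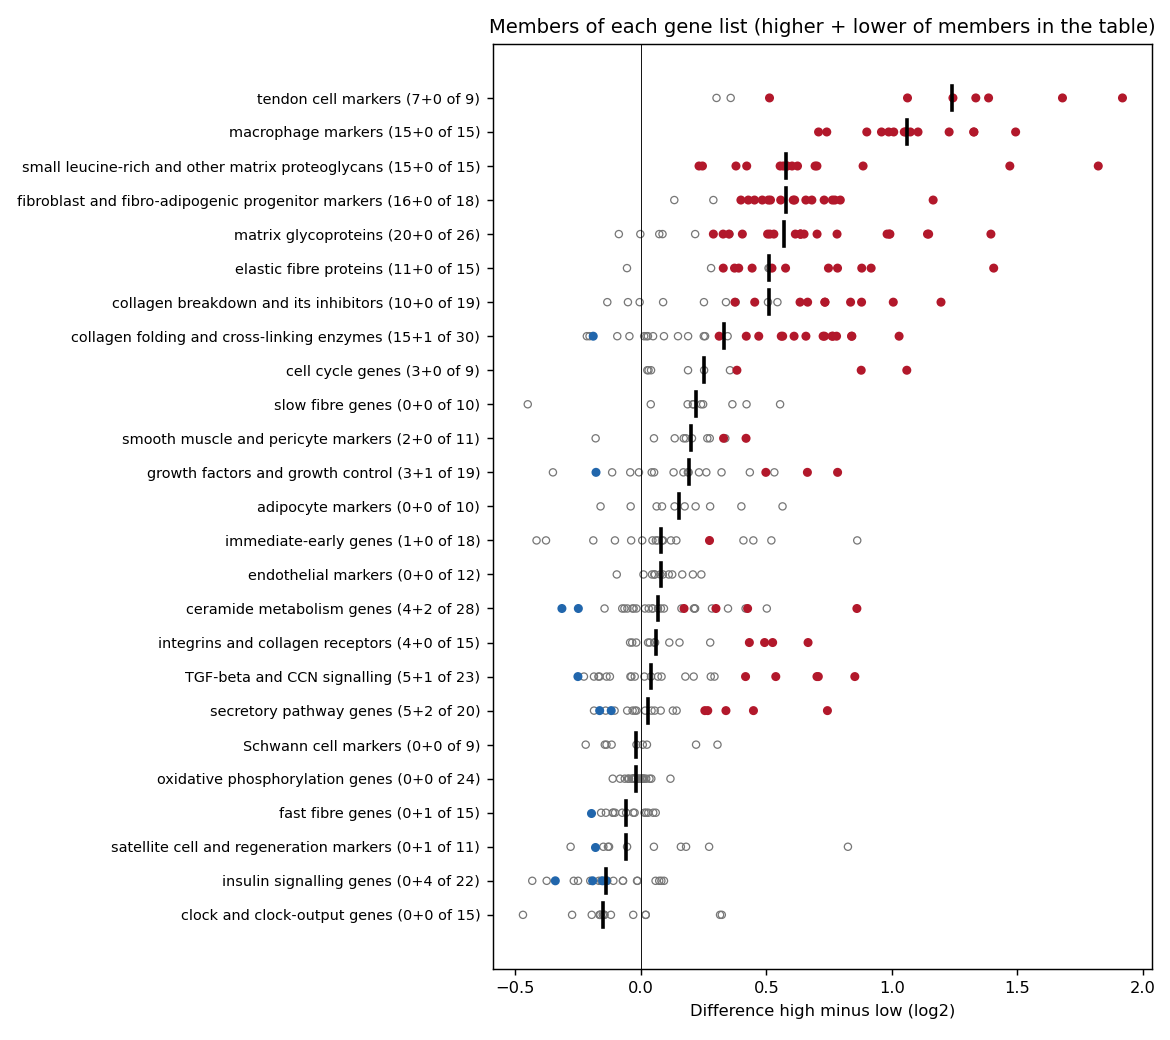
Difference between high and low sets (x axis, log2) for every measured member of the gene lists (rows), with filled points for genes past the threshold, open points for the others and a bar at the median. Tendon, macrophage and matrix lists lie to the right, and endothelial, Schwann cell, fast fibre and oxidative phosphorylation lists lie around 0.

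Of 20 secretory pathway genes, 5 were higher and 2 lower, beside 8.03% and 5.76% of all genes, with a median difference of 0.03. Kdelr3, a receptor that returns chaperones to the endoplasmic reticulum, was higher by 0.74, the disulfide isomerase Pdia4 by 0.34 and the translocon channel Sec61a1 by 0.25. Tmed2, a cargo receptor, and Sar1a, the GTPase that starts COPII vesicles, were lower by differences of -0.12 and -0.16. Tmed2 did not pass in sets drawn within blocks (-0.05, adjusted p = 0.427), where Sar1a did. The other 13 did not pass.

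Besides Fstl1, the growth factor list of 19 measured genes, read beside the same shares of all genes, held 2 higher genes, the IGF-binding proteins Igfbp6 at 0.66 and Igfbp4 at 0.50, and 1 lower gene, the growth hormone receptor Ghr, at -0.18 (adjusted p = 0.0244). Ghr did not pass under quantile normalization or without the 3 highest animals (adjusted p = 0.274 and 0.0504). Igf1 had a difference of 0.32 and Mstn, myostatin, the inhibitor of muscle growth, one of -0.35, and neither passed (adjusted p = 0.227 and 0.0562). With the block as a covariate Igf1 was higher by 0.61 (adjusted p = 0.0291), and in sets drawn within blocks it did not pass (0.43, adjusted p = 0.134). Of 18 immediate-early genes 1, Jund, was higher at 0.27, a share below the 8.03% of all genes, and it did not pass without the 3 highest animals or in sets drawn within blocks (adjusted p = 0.053 and 0.14). None of 15 clock genes passed, the smallest p being that of Cry1 (-0.27, adjusted p = 0.0591).

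Of 22 measured insulin signalling genes, 4 were lower and none higher, beside 5.76% of all genes lower. A positive difference was seen in 4 of the 22, beside 6028 of all 13407 genes, and the median was -0.14 beside -0.02. Rab10, a GTPase of glucose transporter traffic, ran from 8.40 to 8.97 (median 8.76) in the high set and from 8.75 to 9.17 (median 8.92) in the low set. Of the 23 high animals 10 lay below every low animal, and the others fell within the low range. The difference was -0.19 ± 0.04 (SE, limma adjusted p = 0.00171), a level 1.14-fold lower in the high set. Rictor, a subunit of mTOR complex 2, differed by -0.34, the GTPase Rac1 by -0.15 and the kinase Gsk3a by -0.14. The receptor Insr and its substrate Irs1, at -0.17 and -0.27, did not pass (adjusted p = 0.0845 and 0.35). Under quantile normalization 1 of the 4, Rictor, remained lower, and without the 3 highest animals 2 of the 22, Rab10 and Rac1, were lower. Rab10 and Rictor passed in sets drawn within blocks, and Rac1 and Gsk3a did not (adjusted p = 0.147 and 0.0765).

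Of 28 ceramide metabolism genes, the subject of the series, 4 were higher and 2 lower, beside 8.03% and 5.76% of all genes, so the lower share was near that of all genes. The median difference was 0.07. Cers2, the synthase for very long acyl chains, ran from 4.11 to 4.72 (median 4.51) in the high set and from 3.95 to 4.67 (median 4.28) in the low set, and 2 of 23 high animals lay above the low range. Its difference was 0.17 ± 0.06 (SE, limma adjusted p = 0.034), and 0.18 with the block as a covariate, where it did not pass (adjusted p = 0.0797), nor did it in sets drawn within blocks (adjusted p = 0.137). Cers6, which makes shorter chains, was higher by 0.86 (adjusted p = 0.00516), Sgpl1, the lyase that ends sphingolipid breakdown, by 0.43 (adjusted p = 0.000368) and Elovl1, an elongase of very long fatty acids, by 0.30 (adjusted p = 0.00233). Sgms1, which turns ceramide into sphingomyelin, ran from 5.02 to 6.37 (median 5.77) in the high set and from 5.39 to 6.45 (median 6.17) in the low set, a difference of -0.31 ± 0.08 (SE, limma adjusted p = 0.00851). Cert1, the carrier that brings ceramide to it, differed by -0.25 (adjusted p = 0.0186). With the block as a covariate Cert1 passed and Sgms1 did not (adjusted p = 0.0223 and 0.0696). In sets drawn within blocks neither passed (0.083 and 0.0987).

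With a minimum mean of 1, the 15 genes with the largest higher differences were matrix, tendon and macrophage genes described above (Tnmd, Kera, Ctss, Fmod, Mfap4, Tnc, Chad, Angptl7 and Adgre1) and 6 others. Of these, Gpnmb, a glycoprotein of lipid-laden macrophages, differed by 1.35, Mpeg1, perforin-2, by 1.31, Nckap1l, a white-cell actin regulator, by 1.29 and the inhibitory receptor Lilrb4a by 1.28. The predicted genes Gm47015 and Gm56667 differed by 1.42 and 1.41, and Gm47015 lost its call with the block as a covariate (adjusted p = 0.19). The 10 largest lower differences were smaller. Akr1e1, an aldo-keto reductase, ran from 0.28 to 3.72 (median 2.38) in the high set and from 1.42 to 4.25 (median 3.44) in the low set, a difference of -0.82 (limma adjusted p = 0.0284) that was -0.57 with the block as a covariate (adjusted p = 0.247). Tmem100, an endothelial membrane protein, differed by -0.65, Hpn, the serine protease hepsin, by -0.52 and the kinase Pim1 by -0.50. The others were Gm56626, Gm48161, Gm38560, 2310065F04Rik, 4632427E13Rik and 2210418O10Rik, at -0.72, -0.60, -0.56, -0.51, -0.50 and -0.49. Each of these 10 lost its call in at least 1 other fit. With the block as a covariate Akr1e1 and 4 others did not pass, Tmem100, Gm48161, Gm38560 and 4632427E13Rik (adjusted p = 0.0579, 0.0699, 0.11 and 0.13). In sets drawn within blocks 9 did not pass, and the other, Gm38560 (-0.60, adjusted p = 0.038), did not pass without the 3 highest animals (-0.47, adjusted p = 0.131).

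The middle animals gave a look at animals outside the 2 sets. Within them no gene passed by limma with Benjamini-Hochberg adjustment, higher or lower (0 of 13407, 0%), and 836 had an unadjusted p under 0.05. Of the 1077 genes higher at the ends, 878 (81.5%) had a slope of the same sign in the middle animals, as did 514 of the 772 lower genes (66.6%), 6495 of the 11558 genes that had not passed (56.2%) and 58.8% of all genes. Among the higher genes, 145 had an unadjusted p under 0.05 with the same sign and 2 with the opposite sign. Among the lower genes these counts were 42 and 7. Genes move together within an animal, so these shares carry no test. Sparc, at 0.32 log2 units per SD of the score, Pcolce, at 0.30, and Pdgfrl, at 0.83, had middle slopes with unadjusted limma p-values of 0.000562, 0.00104 and 4.52e-05. Thbs4 (0.09), Adgre1 (-0.02) and C1qa (0.05), all higher at the ends, had slopes near 0. Their lists as a whole had positive middle slopes in 11 of 15 macrophage markers (median 0.266) and 7 of 9 tendon markers (median 0.132). Over all 13407 genes 6888 had a positive slope.

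**Figure D5:**
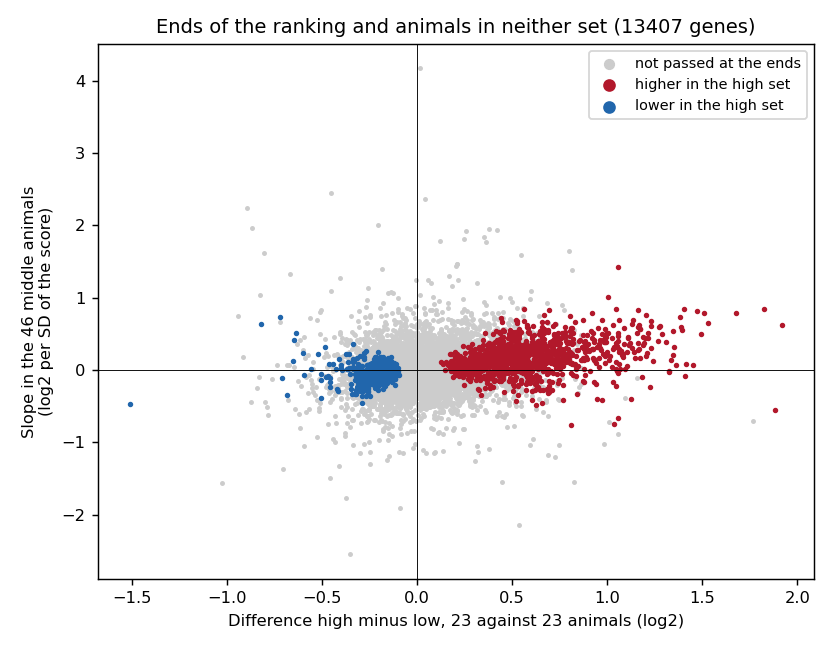
Slope on the collagen score in the 46 middle animals (y axis, log2 per SD of the score) against the difference between high and low sets (x axis, log2) for each of 13407 genes, coloured by the call at the ends. Of the genes higher at the ends, 81.5% lie above 0 on the y axis, and of the lower genes 66.6% lie below it.

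Over all 92 animals the slope on the score was positive for 1488 genes (11.1%) and negative for 1314 (9.8%) past the threshold of limma with Benjamini-Hochberg adjustment. Of the 1849 genes called at the ends, 1626 were among them in the same direction. This fit shares its animals with the comparison of the ends and is not independent of it.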

How the data were processed

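RNA from the quadriceps of 92 chow-fed DOz mice was measured as polyadenylated RNA, from 500 ng of RNA input per the labels' protocols. The submitters' processing notes name bcl2fastq, kallisto 0.50.1, MultiQC and edgeR and the build mm10, with no role or order given. The authors deposited 1 table of log2 values, whose scale neither the labels nor the header states. Summed after raising 2 to each value, a library gave 898071 to 1140761, so the deposited log2 values are taken as per-million values. The filter on low genes and the read depth are not given in the sources used here. So precision rests on how far animals of a set differ. Of 13456 lines 15 were repeats and were removed, leaving 13441 genes, 36 of them without a symbol. All columns matched a sample title. No pair of libraries was a duplicate: over 4186 pairs the root mean square of log2 differences was at least 0.521, with a median of 0.66.

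Differences were tested with limma 3.58.1 in R 4.3.3 (a linear model per gene, empirical Bayes with a mean-variance trend, Benjamini-Hochberg adjustment over 13407 genes, threshold 0.05), without covariates, and the 34 collagen family genes were left out. A slope on the score was fitted in the same way in the 46 middle and in all 92 animals. The fit was tested on simulated data. The blocks are runs of title numbers separated by gaps of more than 30. Promoter windows came from RefSeq.

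The rule named the 15 higher and 10 lower genes with the largest differences among those past the threshold with a mean of at least 1, up to 4 members of each of 26 gene lists with the smallest p, and a few set genes. The lists held 460 genes, of which 419 were in the table. Outside this rule, Bmp1, Crtap, Serpinh1, Mia3, P3h3, P4ha2, Loxl4, Dcn, Eln, Tgfbr2, Bmpr2, Scx, Myh1, Myl1, Sar1a, Cert1, Psmd12, Psmc6 and G630030J09Rik were named after their values were seen. The members and lists were chosen with earlier results of these data known. Alternatives covered the size of the sets, the score, covariates, pseudocount, filter, scaling, variance model and extreme animals. Leaving out the 3 highest animals, drawing sets within blocks and the macrophage and tendon covariates were added after the data were seen.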

Additional observations from a re-analysis of the deposited data

How the results depend on the processing

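No paired analysis was possible because the labels give 1 group of animals and no replicate numbers. Ranking without z-scoring gave the same sets. Beside 1077 higher and 772 lower genes, the lower count was 512 with 31 animals a set, 499 without the 3 highest animals, 356 in sets drawn within blocks and 1362 after median centring, where the count over all 92 animals was 2129 beside 1314. Quantile normalization gave 665 higher and 326 lower. The macrophage list score as a covariate gave 71 and 42, the tendon list score 6 and 0, the fibroblast list score 1 and 0, and the macrophage, endothelial, adipocyte, Schwann cell and slow fibre scores together 7 and 4. The cause of these changes was not tested. In the middle animals no alternative called a gene.

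Signs of the named genes turned mainly in the fits with a list score. Chad is in the tendon list, Pdgfra in the fibroblast list, and C1qc and Ctss in the macrophage list, so each was fitted on a score that contains it and its value there says nothing of its own. With the tendon score Kera was at -0.15, Fmod -0.026, Fbln1 -0.093, Itga2 -0.021, Itga11 -0.33, Chad -0.27, Cspg4 -0.013 and Gm48161 0.046. With the fibroblast score Dcn was at -0.18, Fbln1 -0.14, Ccn3 -0.21, Tgfbr2 -0.19, Ccn2 -0.34, Itga2 -0.26, Itga11 -0.27, Pdgfra -0.0032, Angptl7 -0.008, Igfbp6 -0.033, Igfbp4 -0.19, Igf1 -0.18, Gsk3a 0.024, Cers2 -0.015, Atp2a1 0.077, Tnnt3 0.0019, P3h3 -0.060 and Pim1 0.0025. With the macrophage score Tgfbr2 was at -0.0047, Ccn2 -0.36, C1qc -0.041, Ctss -0.10, Igf1 -0.10, Gsk3a 0.052, Atp2a1 0.054, Tnnt3 0.042 and 2310065F04Rik 0.028. With the 5 scores together Tgfbr2 was at -0.20, Ccn2 -0.38, C1qc -0.084, Igf1 -0.26, Gsk3a 0.07, Cers6 -0.083, Akr1e1 0.0029, Atp2a1 0.10, Tnnt3 0.055 and Pim1 0.12. Atp2a1 was at 0.054 after quantile normalization. Myh7, at -0.45, was at 0.038 with 31 animals a set, at 0.039 with the block as a covariate, at 0.062 when ranked by Col1a1 alone, at 0.064 when ranked by Col3a1 alone, and at 0.37 in sets drawn within blocks.

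The limits are these. The score and the genes tested come from the same libraries, depth is unknown, and the high set is concentrated in blocks 1 and 2. Pseudocount, variance model and score gene kept both counts within 1.5 times.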

Other observations

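Gene families read from their symbols, chosen after the values were seen, gave these counts. Of 351 zinc finger genes (symbols that start with Zfp and a number), many of which encode DNA-binding repressors, 5 were higher and 26 lower in the high set by limma with Benjamini-Hochberg adjustment, with a median difference of -0.08 beside -0.02 for all genes. The lower share, 7.41%, was near the 5.76% of all genes, and nothing is read from it. The counts were 4 and 39 after median centring, 1 and 31 after quantile normalization, 4 and 21 with the block as a covariate and 2 and 8 in sets drawn within blocks. Of 37 proteasome subunit genes none was higher and 6 were lower, among them Psmd12 at -0.15 and Psmc6 at -0.16. The proteasome count was 10 after median centring, 0 after quantile normalization and 3 in sets drawn within blocks, so it depends on the scaling. Of 77 cytosolic ribosomal protein genes 1 was higher (1.3%), beside 8.03% of all genes. None of the 13 genes of the mitochondrial genome passed, beside 13.8% of all genes in either direction.

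Of 937 long non-coding RNAs 10 were higher and 18 lower, beside 950 higher and 664 lower of 10655 protein-coding genes, and the difference between the classes was not tested. G630030J09Rik, the 1 gene lower by more than 1, ran from -3.86 to 2.86 (median -0.30) in the high set and from -1.73 to 3.22 (median 1.56) in the low set. With the macrophage list score as a covariate it differed by -2.70.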
